A study of Mus musculus with 6 samples.

Results

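The 9 genes described here encode 4 transglutaminases (Tgm1, Tgm2, Tgm3 and Tgm5) and 5 proteins of the late steps of skin cornification (Cnfn, Cdsn, Krtdap, Dmkn and Calm4). They were taken by symbol from a count table of 18180 genes, and all 9 were found and passed the low-count filter. The table's NCBI Gene identifiers for them are 21816 (Tgm1), 21817 (Tgm2), 21818 (Tgm3), 74176 (Tgm5), 72383 (Cnfn), 386463 (Cdsn), 64661 (Krtdap), 73712 (Dmkn) and 80796 (Calm4). The table comes from tail skin of mice, with 3 libraries labelled cKO and 3 labelled Ctrl. The libraries labelled cKO came from mice of genotype Mettl3fl/fl;K14creERT2+/-, in which tamoxifen activates a Cre recombinase driven by the keratin 14 promoter, so that deletion is aimed at basal keratinocytes and the cells that descend from them. The Ctrl libraries came from Mettl3fl/fl;K14creERT2-/- mice, which carry the same floxed alleles of Mettl3 without Cre. Mettl3 is the catalytic subunit of the complex that writes N6-methyladenosine on RNA. According to the series' design text, tamoxifen was given on 5 days in a row and skin was taken 4 weeks later, from tail areas that had become inflamed without further treatment in the Cre mice and from normal tails in the others, so genotype and inflamed tissue cannot be told apart. Age and sex are not given. Nothing in the labels ties the 3 libraries of a group to different mice, and a p-value here sets a difference against library-to-library spread that may be technical only.

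Transglutaminases are calcium-dependent enzymes that join glutamine and lysine side chains of neighbouring proteins. In the outermost living layer of the epidermis they link precursor proteins into the cornified envelope, the insoluble shell that replaces the cell membrane of a dying keratinocyte. Corneodesmosomes hold the dead cells together until proteases cut them and the cells are shed. Tgm1 is anchored to the membrane, and its loss causes lamellar ichthyosis in people and a lethal barrier defect in newborn mice. Tgm3 is a soluble proenzyme of epidermis and hair follicle that proteolysis activates, Tgm5 is an epidermal enzyme whose loss causes superficial skin peeling in people, and Tgm2 is the widespread tissue transglutaminase, abundant in endothelium, fibroblasts and macrophages.

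The question for these genes was whether the machinery that seals the epidermal surface had the same transcript levels in inflamed skin of the Cre genotype as in normal control skin. Tgm3 showed the largest difference of the 9, close to 4-fold higher in the libraries labelled cKO, followed by Calm4, Tgm5 and Cnfn. Tgm1, the enzyme most closely tied to barrier disease, was 1.13-fold higher. Cdsn, Dmkn and Krtdap differed by at most 1.07-fold in either direction.

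The promoters of 5 of the 9 genes are shown because these genes span the range of the differences and because Krtdap and Dmkn are neighbours on chromosome 7. They are RefSeq sequences of build GRCm38.p6, another build than the mm39 of the count table, and 8 of the 9 genes had an entry (not Tgm2). Each runs 5′ to 3′ along the gene's strand over 300 bases, and base 251 is the listed start of transcription. Where several starts were listed, as for Tgm1 and Dmkn, the most upstream is shown. Capitals mark matches, on either strand, to TGANTCA (AP-1), AACNGGTT (Grainyhead-like factors), TTCNNNGAA (STAT factors) and, for the TATA box, the letters TATAAA. No matches overlapped each other.
Tgm3, chr2:130012090-130012389, plus strand: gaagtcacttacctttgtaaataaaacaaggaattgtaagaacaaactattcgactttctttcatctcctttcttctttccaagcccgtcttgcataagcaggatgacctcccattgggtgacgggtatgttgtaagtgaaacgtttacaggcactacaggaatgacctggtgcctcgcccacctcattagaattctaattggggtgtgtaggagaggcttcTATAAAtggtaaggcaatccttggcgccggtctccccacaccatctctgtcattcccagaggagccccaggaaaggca
Calm4, chr13:3837507-3837806, plus strand: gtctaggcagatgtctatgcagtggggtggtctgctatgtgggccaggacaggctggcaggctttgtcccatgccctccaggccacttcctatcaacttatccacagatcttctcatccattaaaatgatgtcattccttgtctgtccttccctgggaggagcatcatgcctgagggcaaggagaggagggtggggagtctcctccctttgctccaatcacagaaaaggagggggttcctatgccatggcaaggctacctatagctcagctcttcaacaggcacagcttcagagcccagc
Tgm1, chr14:55713443-55713742, minus strand: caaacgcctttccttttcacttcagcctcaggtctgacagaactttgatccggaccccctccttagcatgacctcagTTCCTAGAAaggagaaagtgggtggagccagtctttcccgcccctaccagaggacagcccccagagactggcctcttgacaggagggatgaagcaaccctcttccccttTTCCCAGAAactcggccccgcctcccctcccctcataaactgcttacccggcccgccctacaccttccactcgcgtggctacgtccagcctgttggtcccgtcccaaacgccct
Dmkn, chr7:30763506-30763805, plus strand: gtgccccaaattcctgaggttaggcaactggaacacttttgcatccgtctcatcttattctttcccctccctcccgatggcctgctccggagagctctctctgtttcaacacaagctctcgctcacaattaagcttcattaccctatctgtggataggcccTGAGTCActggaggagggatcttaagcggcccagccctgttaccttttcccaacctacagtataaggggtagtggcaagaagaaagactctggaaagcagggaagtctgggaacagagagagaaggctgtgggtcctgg
Krtdap, chr7:30787655-30787954, plus strand: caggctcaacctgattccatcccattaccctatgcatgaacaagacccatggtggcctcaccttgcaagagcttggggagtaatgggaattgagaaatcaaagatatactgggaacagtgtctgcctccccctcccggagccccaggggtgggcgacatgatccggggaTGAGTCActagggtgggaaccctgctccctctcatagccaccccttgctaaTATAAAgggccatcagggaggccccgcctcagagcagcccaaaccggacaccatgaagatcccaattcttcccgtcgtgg
The letters TGAGTCA stood 89 bases before the start of Dmkn and 81 bases before that of Krtdap, and TGANTCA occurred in 2 of the 8 promoters and in 7.81% of 32851 RefSeq promoters of the same length. TATAAA stood 28 bases before the start of Tgm3 and 30 bases before that of Krtdap, in 2 of the 8 promoters against 13.6% of all promoters. Tgm1 held TTCNNNGAA at 173 and at 64 bases before its start, and Cdsn held it once, so that 2 of the 8 promoters had it against 8.3% of all. For 7 of the 8 promoters, bases just after the listed start were found near the beginning of a transcript of the gene. Those of Cdsn were not found, so its listed start is less certain. AACNGGTT was found in Tgm5, 4 bases before its start, and in 2.09% of all promoters. The windows of Calm4 and Cnfn held none of these letters. A match describes the sequence only and does not show that a factor binds there.

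Total gene counts ran from 35855880 to 36113956 in the libraries labelled cKO and from 36115822 to 37043849 in Ctrl libraries. Mettl3, the targeted gene, had 569, 512 and 540 counts in the libraries labelled cKO, against 440, 389 and 337 counts in Ctrl libraries, and it rose 1.4-fold (log2 fold change 0.48, SE 0.109, adjusted p = 0.000102). That direction is not the one the label implies. An assumed spread of 20% between libraries ended that call (adjusted p = 0.15). These are counts over the whole gene, with no separate value for the floxed exons, so they do not measure the deletion itself. For this reason every direction below is given for the libraries labelled cKO. Within a gene, levels are given as CPM (counts in 1000000 after scaling of the library) and, between genes, FPKM (the same per kilobase of gene length, with unscaled library totals), each as mean ± SD over n = 3 libraries. Calls of a higher or lower level rest on edgeR's quasi-likelihood test, with Benjamini-Hochberg adjustment over 15061 genes and a threshold of 0.05.

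All 9 genes were called, in a comparison that called 61.4% of all genes tested. Set against Ctrl libraries, 8 of the 9 were higher, where 30.8% of all genes were, and 1 was lower, where 30.6% were. The CPM of the groups did not overlap for any of the 9, against 64.9% of all genes tested. A difference of at least 2-fold was called for 2 of the 9, Tgm3 and Calm4, both higher, where 5.98% of all genes were higher by that much and 10.8% differed by it in either direction. The median log2 fold change was 0.34 over the 9 genes and 0.00207 over all genes tested. The 9 genes were listed with earlier results of these data known, so these comparisons with all genes are description only. The spread between libraries of a group was small for these 9 genes, so that differences of a few percent passed the test. Coefficients of variation ran from 0.24% for the abundant Calm4 to 6.42% for the less abundant Tgm5, both in the libraries labelled cKO. If the libraries are assumed to vary with a biological coefficient of variation (BCV) of 20%, only Tgm3, Calm4 and Tgm5 remain called, 3 of 9 against 22.3% of all genes, and all 3 higher against 12.2%, and at 40% only Tgm3 remains.

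**Figure D1:**
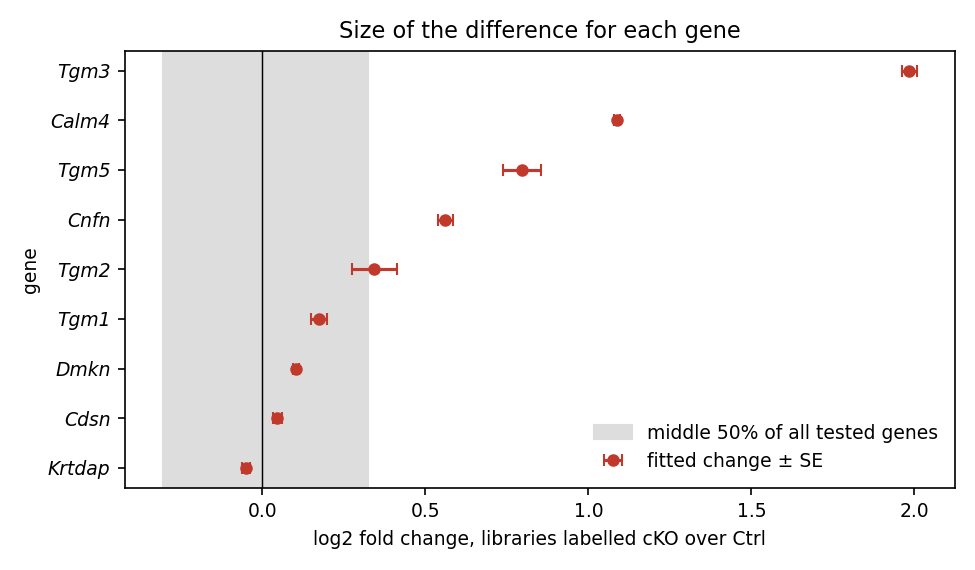
Fitted log2 fold change of each of the 9 genes, libraries labelled cKO over Ctrl, with bars of 1 SE; the grey band spans the middle 50% of all 15061 genes tested, from -0.31 to 0.32. Tgm3, Calm4, Tgm5, Cnfn and the centre of Tgm2 lie to the right of the band, and Tgm1, Dmkn, Cdsn and Krtdap lie within it.

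Among the enzymes, Tgm3 moved most. It had 499, 486 and 499 CPM in the libraries labelled cKO, against 125, 122 and 128 CPM in Ctrl libraries. The lowest library labelled cKO was far above the highest Ctrl library, and the gap was many times the spread within either group. Tgm3 rose 3.96-fold (log2 fold change 1.98, SE 0.0234, adjusted p = 1.02e-69), and it was called under each of the 15 alternative settings tried for single genes, an assumed BCV of 40% included (adjusted p = 0.00188).

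Tgm5 had 54.1, 57.5 and 50.6 CPM in the libraries labelled cKO, against 31.4, 31.3 and 30.7 CPM in Ctrl libraries. The groups were well apart, and the libraries labelled cKO were more scattered than the Ctrl libraries. Tgm5 rose 1.74-fold (log2 fold change 0.80, SE 0.0583, adjusted p = 2.46e-20). An assumed BCV of 40% ended this call (adjusted p = 0.578).

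Tgm1 had 246, 251 and 254 CPM in the libraries labelled cKO, against 217, 222 and 226 CPM in Ctrl libraries. Every library labelled cKO was above every Ctrl library, with a gap wider than the range within either group. Tgm1 rose 1.13-fold (log2 fold change 0.17, SE 0.0249, adjusted p = 6.04e-09), a call that an assumed BCV of 20% ended (adjusted p = 0.679).

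Tgm2 was the least abundant of the 4, with 34.5, 31.4 and 34.7 CPM in the libraries labelled cKO, against 28 CPM, 26.3 CPM and 25 CPM in Ctrl libraries. Its groups stood close but did not overlap. Tgm2 rose 1.27-fold (log2 fold change 0.34, SE 0.0693, adjusted p = 1.47e-05), and this call too was lost at an assumed BCV of 20% (adjusted p = 0.336). Most listed markers of macrophages, endothelium and fibroblasts, where Tgm2 is abundant, were also called higher. All 7 macrophage markers were called higher (646 to 668 summed CPM in the libraries labelled cKO, 469 to 477 in Ctrl libraries), as were 5 of 7 endothelial markers (241 to 245 against 184 to 195 summed CPM) and 6 of 7 fibroblast markers with 1 lower (16324 to 16370.2 against 11262 to 11369 summed CPM). At an assumed BCV of 20%, 2 macrophage, 1 endothelial and 3 fibroblast markers remained called, all higher. Other cell types went the other way. Smooth muscle markers were called lower in 4 of 5 (217 to 226 against 325 to 332 summed CPM) and red blood cell genes in 5 of 5. At the same BCV, 2 smooth muscle and 4 red blood cell markers remained called, all lower. The part of any of these cell types in the Tgm2 difference was not tested. In tissue of mixed cells, a change in the number of cells of a type and a change in RNA per cell cannot be told apart, which holds for every gene here.

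Per length, the transglutaminase transcripts changed their order. Tgm3 averaged 182 ± 2.71 FPKM in the libraries labelled cKO and 45.1 ± 1.1 FPKM in Ctrl libraries, while Tgm1 averaged 77.9 ± 1.39 FPKM in the libraries labelled cKO and 67.9 ± 1.56 FPKM in Ctrl libraries (SD, n = 3 each). Tgm3 therefore stood above Tgm1 in all 3 libraries labelled cKO, and Tgm1 stood above Tgm3 in all 3 Ctrl libraries. Within a library, a ratio that no scaling of the library can change, Tgm1 was at 0.429 ± 0.0105 times Tgm3 in the libraries labelled cKO and at 1.5 ± 0.0365 times Tgm3 in Ctrl libraries, a difference of -1.81 on the log2 scale. The summed FPKM of the 4 genes was 290 ± 2.05 in the libraries labelled cKO and 132 ± 1.81 in Ctrl libraries.

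Of that sum, Tgm3 held 63.1%, 62.1% and 62.8% in the libraries labelled cKO, against 34.4%, 33.6% and 34.5% in Ctrl libraries. Tgm1 held 26.3%, 27.1% and 27.1% in the libraries labelled cKO, against 50.6%, 51.8% and 51.7% in Ctrl libraries. Tgm3 was thus the majority transcript in the libraries labelled cKO, and Tgm1 in Ctrl libraries. The share of Tgm5 was 7.18% ± 0.515 in the libraries labelled cKO and 8.92% ± 0.216 in Ctrl libraries, and that of Tgm2 was 3.29% ± 0.16 in the libraries labelled cKO and 5.59% ± 0.385 in Ctrl libraries (SD, n = 3 each). The shares of a sum depend on each other, so the lower shares of Tgm1, Tgm2 and Tgm5 stand beside higher levels of all 3. In a two-sided exact permutation test over libraries each of the 4 shares and the ratio of Tgm1 to Tgm3 had p = 0.1, which is the smallest p that 3 against 3 libraries allow, and 0.1 after adjustment over the 5 comparisons.

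**Figure D2:**
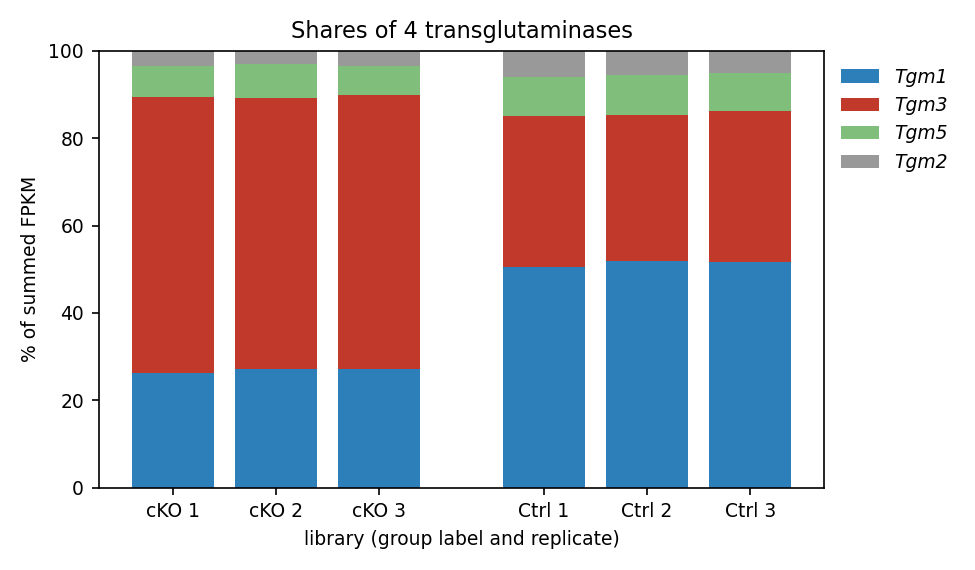
Share of Tgm1, Tgm3, Tgm5 and Tgm2 in the summed FPKM of these 4 genes (percent, vertical axis) in each library labelled cKO and each Ctrl library. The Tgm3 part is 62.1% to 63.1% of the bar in the libraries labelled cKO and 33.6% to 34.5% in Ctrl libraries.

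Calm4 encodes a calmodulin-like calcium-binding protein of mouse epidermis, also known as Scarf, and was the most abundant of the 9 transcripts. It had 9759.6, 9735 and 9782 CPM in the libraries labelled cKO, against 4625, 4579 and 4568 CPM in Ctrl libraries. The libraries of a group lay close together, and the groups were far apart. Calm4 rose 2.13-fold (log2 fold change 1.09, SE 0.00841, adjusted p = 4.01e-82), a call that an assumed BCV of 40% ended (adjusted p = 0.248). It took 0.984% ± 0.00212 of all gene counts in the libraries labelled cKO and 0.455% ± 0.0026 in Ctrl libraries. By mean FPKM it ranked 2 of 18180 genes in the libraries labelled cKO and 6 in Ctrl libraries. Because Calm4 is so abundant, the 9 genes together held 1.82% ± 0.00373 of all counts in the libraries labelled cKO, against 1.2% ± 0.00339 in Ctrl libraries.

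Cnfn encodes cornifelin, a small component of the cornified envelope. It had 359, 367 and 362 CPM in the libraries labelled cKO, against 243, 244 and 252 CPM in Ctrl libraries. The groups were well apart. Cnfn rose 1.48-fold (log2 fold change 0.56, SE 0.0223, adjusted p = 2.59e-35), and at an assumed BCV of 20% it narrowly missed the threshold (adjusted p = 0.0714).

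Cdsn encodes corneodesmosin, the glue protein of the corneodesmosome, whose loss causes a peeling skin disease in people. It had 1324, 1342 and 1329.9 CPM in the libraries labelled cKO, against 1279.99, 1292 and 1299 CPM in Ctrl libraries. The lowest library labelled cKO was only slightly above the highest Ctrl library. Cdsn rose 1.03-fold (log2 fold change 0.046, SE 0.0131, adjusted p = 0.00169), which an assumed BCV of 20% ended (adjusted p = 0.924).

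Dmkn and Krtdap encode secreted proteins of differentiating keratinocytes, and with Sbsn they form a run of 3 neighbouring genes on chromosome 7. Dmkn, or dermokine, had 3809, 3823 and 3794 CPM in the libraries labelled cKO, against 3587, 3536 and 3516 CPM in Ctrl libraries. It rose 1.07-fold (log2 fold change 0.10, SE 0.00996, adjusted p = 7.59e-15), without overlap between the groups. At an assumed BCV of 20% the call was lost (adjusted p = 0.823). RefSeq lists 3 starts for Dmkn, and the count per gene sums over its isoforms.

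Krtdap, the keratinocyte differentiation-associated protein, was the single member called lower. It had 1906, 1939 and 1925 CPM in the libraries labelled cKO, against 1976, 1978 and 2024 CPM in Ctrl libraries. Every library labelled cKO was below every Ctrl library by a narrow margin. Krtdap fell by 0.051 on the log2 scale (SE 0.012, adjusted p = 0.000148), or 1.04-fold. This call depended on the scaling of the libraries. In the same test it held under RLE (relative log expression) scaling (adjusted p = 0.00015) and with total counts and no scaling factor (adjusted p = 0.0362). It was lost under upper quartile scaling (adjusted p = 0.107) and with a housekeeping list as library size (adjusted p = 0.422). Sbsn, the suprabasin gene on the other side of Dmkn, had 1448 ± 24.9 CPM in the libraries labelled cKO and 1867 ± 26.1 CPM in Ctrl libraries, and fell 1.29-fold (log2 fold change -0.37, SE 0.0129, adjusted p = 1.37e-38), a call that an assumed BCV of 20% ended as well (adjusted p = 0.291).

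In order of mean FPKM the libraries labelled cKO ran Calm4, Krtdap, Dmkn, Cnfn, Cdsn, Tgm3, Tgm1, Tgm5 and Tgm2. Ctrl libraries ran Calm4, Krtdap, Dmkn, Cdsn, Cnfn, Tgm1, Tgm3, Tgm5 and Tgm2. The orders differed in the swap of Cnfn with Cdsn and of Tgm3 with Tgm1. No neighbours in either order overlapped in FPKM over their 3 libraries. The closest were Cnfn and Cdsn in the libraries labelled cKO, at 506 ± 6.38 and 487 ± 3.7 FPKM, and Calm4 and Krtdap in Ctrl libraries, at 4977 ± 28.5 and 4279 ± 60.9 FPKM. In the libraries labelled cKO the mean for Krtdap was 4196 ± 39.6 FPKM and that for Calm4 was 10752 ± 23.1 FPKM. Counting used 1 length per gene, so a shift between isoforms of different length would also move FPKM.

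**Figure D3:**
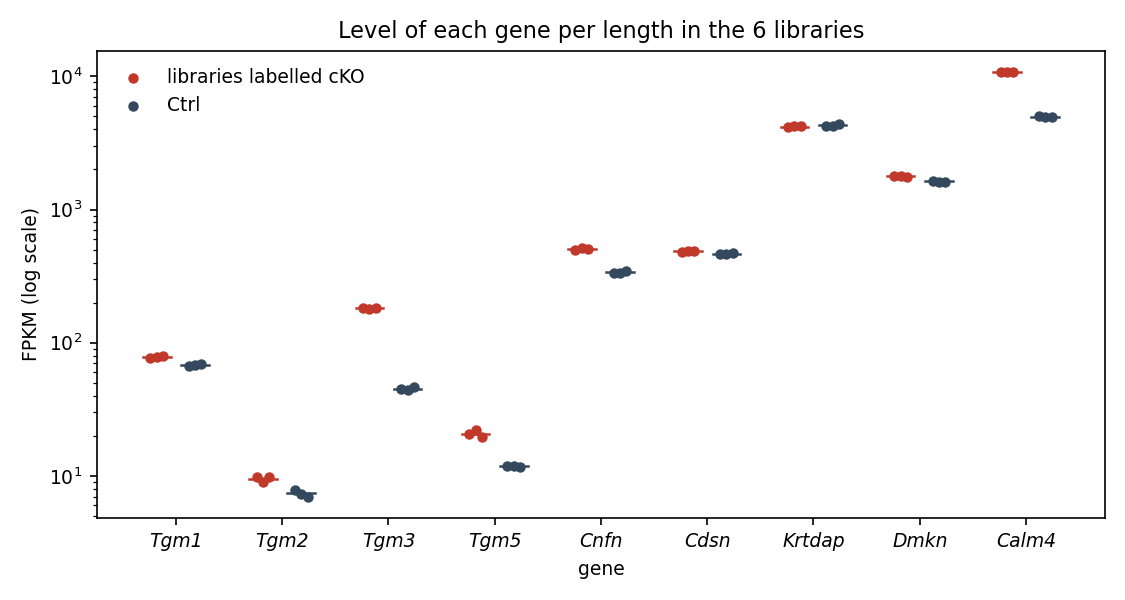
FPKM (log scale) of each of the 9 genes in the 3 libraries labelled cKO (left of each pair) and the 3 Ctrl libraries (right), with a line at the mean. Tgm3 and Calm4 show the widest gaps, and Tgm3 lies above Tgm1 only in the libraries labelled cKO.

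By a fixed measure of likeness, the distance between log2 CPM centred over the 6 libraries, the genes closest to Tgm3 among 11231 candidates were Klk9 and Casp14. Klk9, a kallikrein gene, had 215 ± 4.93 CPM in the libraries labelled cKO and 53.1 ± 2.89 CPM in Ctrl libraries. Casp14, the caspase of cornifying keratinocytes that takes part in filaggrin breakdown, had 393 ± 9.01 CPM in the libraries labelled cKO and 104 ± 3.94 CPM in Ctrl libraries. With 2 groups of 3 libraries this likeness reflects little more than a change of the same size. For Krtdap the closest was Akt2, a kinase gene, which did not pass the test (log2 fold change -0.067, SE 0.0393, adjusted p = 0.136).

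Other genes of the same machinery went several ways. Of 6 further genes listed with the transglutaminase family, Tgm6 and F13a1 could be tested and both were called lower. Tgm6, separated from Tgm3 on chromosome 2 by 1 other gene, had 30.5 ± 1.32 CPM in the libraries labelled cKO and 75.6 ± 3.3 CPM in Ctrl libraries, and fell 2.48-fold (log2 fold change -1.31, SE 0.0534, adjusted p = 1.44e-34). F13a1, the coagulation factor XIII subunit made by macrophages and related cells, had 88.4 ± 4.09 CPM in the libraries labelled cKO and 109 ± 5.12 CPM in Ctrl libraries and fell 1.23-fold, a call that an assumed BCV of 20% ended (adjusted p = 0.405). Tgm4, Tgm7 and Epb42 were too low to test, at means of at most 0.467 CPM in either group. The symbol F13b was not found in the count table.

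Of 6 genes listed for the processing and restraint of transglutaminases, 5 were called higher and 1 lower. The lower one was Cst6, the cysteine protease inhibitor cystatin E/M, which restrains the cathepsin and legumain steps upstream of Tgm3 in mouse skin. Cst6 had 1282 ± 9.56 CPM in the libraries labelled cKO and 2539.5 ± 24.7 CPM in Ctrl libraries, and fell 1.98-fold (log2 fold change -0.99, SE 0.012, adjusted p = 7.92e-69). Among the proteases the genes that changed most were Lgmn (legumain), with 186 ± 7.16 CPM in the libraries labelled cKO and 112 ± 4.03 CPM in Ctrl libraries, and Ctss (cathepsin S), with 163 ± 2.49 CPM in the libraries labelled cKO and 99.1 ± 3.18 CPM in Ctrl libraries. Each rose 1.65-fold. Ctss and Lgmn are also expressed by macrophages, whose markers were called higher, and the part of these cells was not tested. At an assumed BCV of 20%, Lgmn, Ctss and Cst6 remained called and Ctsd, Ctsl and Capn1 did not.

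The proteins that the enzymes cross-link split, with 13 of 25 listed precursor genes higher and 12 lower (median log2 fold change 0.024). The largest rises were those of the small proline-rich genes Sprr3, at low levels (2.52 ± 0.974 CPM in the libraries labelled cKO, 0.0917 ± 0.0571 CPM in Ctrl libraries), and Sprr2d (788 ± 13.8 against 50.9 ± 3.75 CPM). The fitted fold of Sprr3 rests on very few Ctrl counts. The value for Sprr2d is uncertain, since the Sprr2 genes resemble each other closely and how reads shared among them were counted was not given. The largest falls were those of Krt2, a late suprabasal keratin gene (log2 fold change -1.41, SE 0.00788), and Tchhl1, a trichohyalin-like gene, which had 62.5 ± 3.33 CPM in the libraries labelled cKO and 139 ± 0.72 CPM in Ctrl libraries (log2 fold change -1.15, SE 0.0384). At an assumed BCV of 20% the split was 9 higher and 4 lower. Upper quartile, total-count and housekeeping scaling each gave 13 higher and 11 lower.

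Of 13 genes of the corneodesmosome and its proteolysis, 9 were called higher and 4 lower (median log2 fold change 0.61). The kallikrein protease genes Klk13 and Klk6 rose most. Klk13 had 196 ± 2.71 CPM in the libraries labelled cKO and 17 ± 0.629 CPM in Ctrl libraries, and Klk6 had 354 ± 4.71 CPM in the libraries labelled cKO and 50.2 ± 1.25 CPM in Ctrl libraries. The desmosomal genes Dsg1a and Pkp1 had the largest falls, of 1.13-fold and 1.09-fold. The 4 lower calls, which also include St14 and Prss8, were all lost at an assumed BCV of 20%, where 7 genes remained higher. St14 and Prss8 were also lost under upper quartile and housekeeping scaling, and Prss8 with total counts.

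Around Calm4, its neighbours on chromosome 13 did not follow it in size. Calml3, a calmodulin-like gene of epithelia, had 1102 ± 7.43 CPM in the libraries labelled cKO and 800.03 ± 17.1 CPM in Ctrl libraries, and rose 1.38-fold. Calm5, the other neighbour, had 99.2 ± 4.9 CPM in the libraries labelled cKO and 102 ± 1.81 CPM in Ctrl libraries and did not pass the test (log2 fold change -0.045, SE 0.0377, adjusted p = 0.308). Of the 6 listed calmodulin genes outside the 9, 3 were called higher, with Calm3 at 100.4 ± 3.83 against 68.5 ± 1.39 CPM, and none lower. Upper quartile, total-count and housekeeping scaling each called 4 of the 6 higher. None of these calmodulin calls held at an assumed BCV of 20%, at which Calm3 had an adjusted p of 0.0786.

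**Figure D4:**
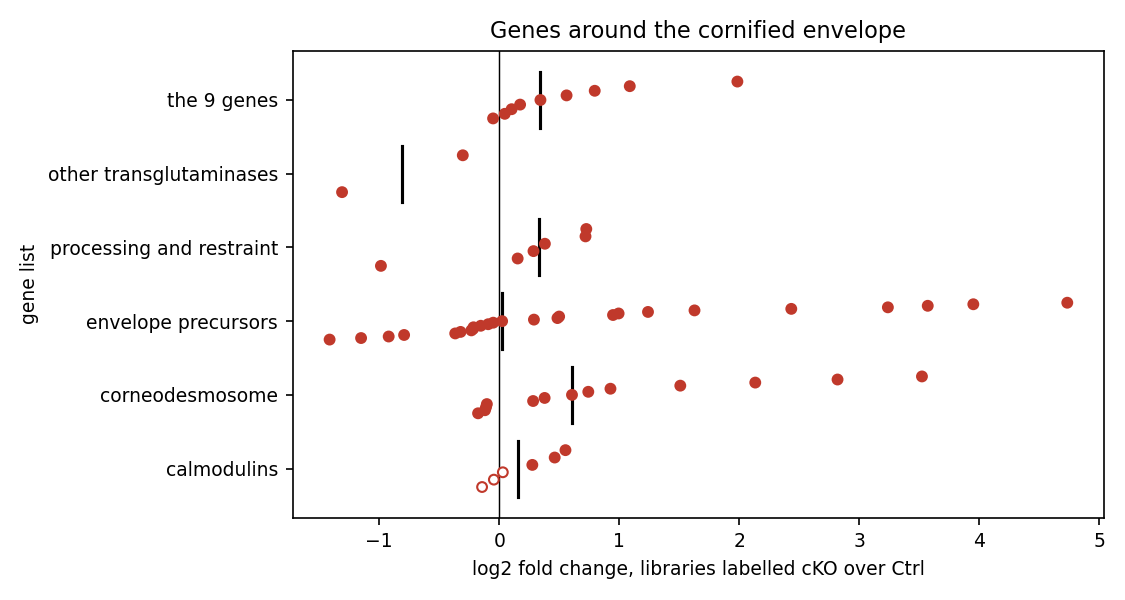
Log2 fold change, libraries labelled cKO over Ctrl, of each tested gene in the 9 genes described and in 5 related lists; filled points passed the test, open points did not, and black lines mark the medians. The 9 genes run from -0.051 to 1.98, and the precursor genes spread from -1.41 to 4.73.

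The labelled tissue matched its markers, with basal and suprabasal keratinocyte genes abundant in both groups. Suprabasal markers, the cells in which the cornification genes are mostly made, summed to 51122 to 51572 CPM in the libraries labelled cKO, against 25429 to 25576 CPM in Ctrl libraries, with 4 of 6 called higher and 2, Sbsn and Dsg1a, lower. Without Krt1, the suprabasal keratin gene that made up most of that gap, the other 5 summed to 30790.6 to 31049 CPM in the libraries labelled cKO, against 23269 to 23388 CPM in Ctrl libraries. Krt2, described above, is not on that list and was lower. Basal markers had 3 higher and 3 lower of 6 (12723 to 13014 against 9307 to 9511 summed CPM), and without Krt14 the other 5 summed to slightly less in the libraries labelled cKO than in Ctrl libraries (5140.1 to 5178 against 5253 to 5318 CPM). Hair shaft and tail scale keratins were lower in 9 of 9 (7039 to 7078 against 34125 to 34246 summed CPM), and inner root sheath keratins, a site of Tgm3 in the hair follicle, in 6 of 6 (3134 to 3157 against 5084 to 5165 summed CPM). Sebaceous markers were called lower in 4 of 5, smooth muscle markers in 4 of 5 and red blood cell genes in 5 of 5. Neutrophil markers were higher in 4 of 4 tested (25.6 to 27 against 5.91 to 8.09 summed CPM), and of 6 skeletal muscle markers tested 1 was called higher. Over all genes tested, 30.8% were called higher and 30.6% lower. At an assumed BCV of 20%, suprabasal markers had 2 higher and 0 lower, and basal markers 1 higher and 2 lower. At that BCV, 8 hair shaft and tail scale, 4 inner root sheath and 3 sebaceous markers remained lower. All 4 neutrophil markers remained higher, and 3 skeletal muscle markers were called higher. No listed marker was without counts in all libraries of a group. The part of these shifts in the differences of the 9 genes was not tested.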

How the data were processed

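Per the labels' protocols, tail skin RNA was isolated with TRIzol, and the library kit was VAHTS Universal V5. Reads went through fastp, HISAT2 and HTSeq on mm39, per the submitters' processing notes. The annotation, the strand setting and the handling of multi-mapped reads were not given in the sources used here, and without a strand setting reads of overlapping genes cannot be told apart. In RefSeq, Tgm3 overlaps Gm52561 and Mir6339, and Tgm5 overlaps Gm14213. The deposited counts are whole, unnormalized counts per gene. The FPKM values deposited by the authors equal those counts divided by 1 length per gene and the library total for all 18180 genes, within a relative tolerance of 1e-06.

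Counts were tested with edgeR 4.0.16 in R 4.3.3, using filterByExpr (minimum count 10, minimum total 15), TMM scaling and a robust quasi-likelihood fit with group as the only term. The fit was also run on counts simulated with its own estimated dispersions. Such counts share the assumptions of the fit and cannot show whether the spread between these libraries is technical. Each SE was taken as the size of the log2 change over the root of its F statistic. FPKM served for levels between genes and for alternatives in limma 3.58.1. Other alternatives were DESeq2 1.42.0, limma-voom, 4 scalings, 2 count filters, a threshold of 0.01, assumed BCVs in edgeR's likelihood ratio test, the replicate number as a block and leaving out each library. Replicates of a group differed by more than counting noise (chi-square over its degrees of freedom 3.94 to 4.12). With 35855880 to 37043849 counts per library, 3 counts equal 0.081 to 0.0837 CPM.

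Members, lists, tests and alternatives were chosen with earlier results of these data known. Genes outside the members were named by a rule: up to 2 called genes per list and direction with the largest change, plus Sbsn, F13a1, Calm5, Calml3 and Cst6, and the 2 genes most like the members with the largest rise and fall, with a mean of at least 5 CPM. A gene named by this rule is not reported here. St14, Prss8, Ctsd, Ctsl and Capn1 were named, and marker sums without the gene of largest CPM difference were added, after the values were seen.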

Additional observations from a re-analysis of the deposited data

How the results depend on the processing

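Each of the 9 genes kept its direction under all 15 alternatives tried for it and without any single library. Assuming a BCV of 20% moved the members called higher and lower to 3 and 0 and the genes called overall to 3361, and a BCV of 40% to 1 and 0 and to 774. At 20% the log2 fold changes no longer past the threshold were 0.17 for Tgm1, 0.34 for Tgm2, 0.56 for Cnfn, 0.046 for Cdsn, -0.051 for Krtdap and 0.10 for Dmkn. At 40% Tgm5 (0.80) and Calm4 (1.09) joined these 6, again at 0.17, 0.34, 0.56, 0.046, -0.051 and 0.10. By construction these settings widen the spread between libraries. Krtdap was also lost, leaving 0 members lower, under upper quartile scaling (-0.0222), a housekeeping list as library size (-0.0119) and limma on log2(FPKM + 1), log2(FPKM + 0.1) and log2(FPKM + 1) with a filter of 0.5 FPKM (-0.028 each). The median log2 fold change over all genes tested also moved with the scaling. It was 0.0021 under TMM, 0.031 under upper quartile, 0.041 under housekeeping scaling and 0.025 with total counts. The cause of the lost Krtdap calls was not tested further. Without 1 library at a time, 8 members were called higher and 1 lower each time, with 8694 to 8847 genes called overall. Same-numbered libraries of the groups did not deviate together (r of -0.0217, -0.00985 and -0.0407 over 15061 genes). This gave no sign of pairing by number, but a shared origin need not show in such deviations. With the replicate block 8 members were higher, 1 was lower and 9212 genes were called. Shares from counts in place of FPKM kept their directions.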
